A study of Mus musculus with 6 samples.

Results

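Collagen genes were taken as all protein-coding rows of the expression table whose gene name has the form Col, a number, a and a number, which gave 44 of the 49548 genes listed. They were sorted by the structure that their chains build: 11 fibrillar genes, 6 genes of type IV collagen of basement membranes, 9 fibril-associated (FACIT) genes, 6 genes of the beaded filaments of type VI collagen, 3 short-chain network genes, 2 multiplexin genes, 4 transmembrane genes and 3 genes left unclassed (Col7a1, Col26a1 and Col28a1). Between hTNFtg synovial fibroblasts (SFs) given amisulpride and untreated hTNFtg SFs, the chains Col5a3 and Col6a3 were lower with the drug, by 3.66-fold and 2.19-fold. Col5a3 alone had an adjusted p under 0.05 in limma, which held without amisulpride replicate 3 but with no other library left out. The treated values of both lay wholly below the untreated ones, as for 8.66% of all genes tested. No class with more than 2 tested genes lay wholly to one side, and partner chains of the same collagen types, such as Col5a1 and Col6a1, had values that overlapped between the groups.

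The cells were cultured SFs from ankle joints of 8-week-old mice on a CBA C57BL/6J background that carry a human TNF transgene, a model of chronic polyarthritis in which all groups compared here carry the transgene. CD45+ leukocytes had been depleted at the first passage, according to the study's methods. The 3 untreated libraries were compared with 3 libraries from SFs given 500 μM amisulpride, a benzamide antipsychotic that blocks dopamine receptors, for 48 hours, to ask how the drug changes the expression profile of arthritogenic fibroblasts. The labels describe the controls as having had no treatment where the methods speak of vehicle, and the methods call the replicates biological without saying which animals each came from.

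Collagens are the main proteins of the matrix that fibroblasts lay down. Each collagen molecule consists of chains wound around each other, and the winding requires a glycine at the start of every Gly-X-Y triplet. Fibrillar collagens keep this pattern over a long domain, in most of them without a break. Types I and III are the bulk of loose connective tissue, and type V is a minor component that governs fibril formation. Type IV collagen forms the sheets of basement membranes and its helix is interrupted many times, FACIT collagens sit on the surface of fibrils, and type VI collagen forms microfilaments around cells. In arthritic joints SFs both produce matrix and degrade it.

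The repeat could be followed in the coding sequences. Glycine is encoded by the codons GGN, and runs of at least 10 consecutive codon triplets opening with GGN were located in the coding sequences of the 23 collagen genes that passed the filter on low values (GENCODE annotation of GRCm38). In 7 of the 8 fibrillar genes the longest run spanned 337 to 344 repeats. Col27a1 was the exception at 217 repeats (codons 673 to 1323), with a second run of 93 repeats that began at codon 1325. The type IV genes held 17 or 18 runs each, the longest of 40 to 66 repeats, and the longest runs spanned 45 to 87 repeats in beaded filament genes, 32 to 52 in FACIT genes, 59 or 60 in short-chain genes and 30 in both multiplexin genes. In Col5a3 the longest run was 337 repeats and in Col6a3 it was 45.

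**Figure D1:**
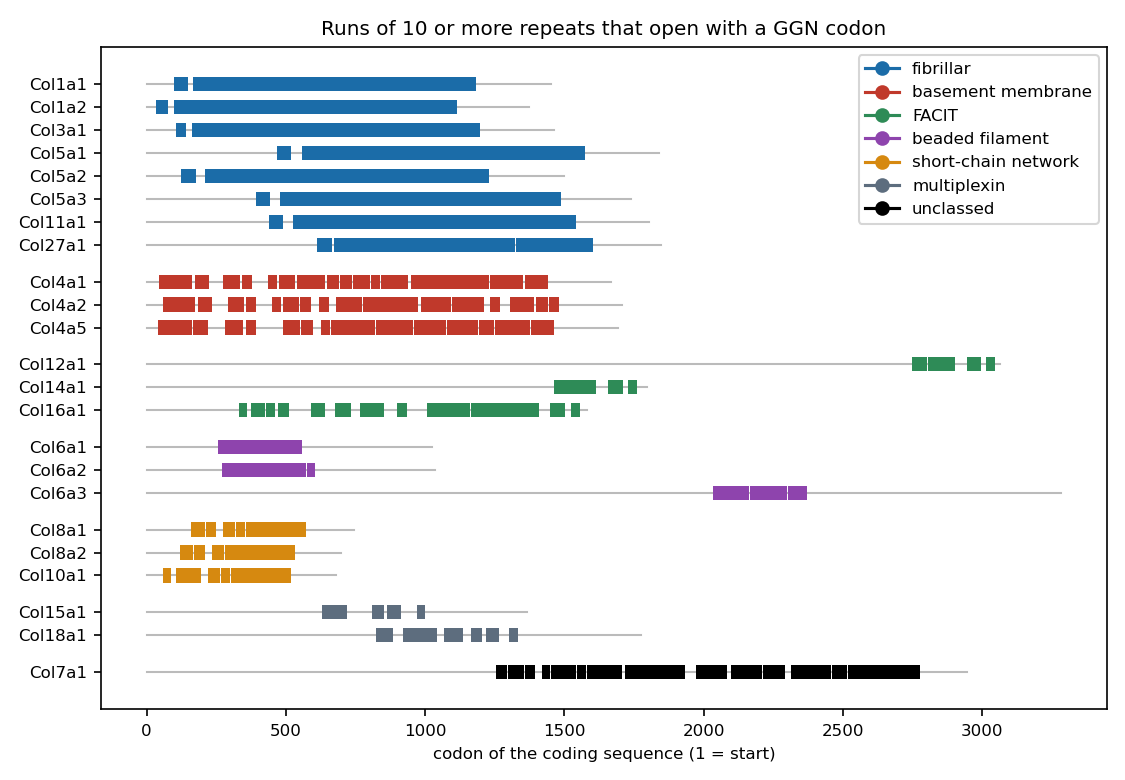
Map of the runs of 10 or more codon triplets that open with a GGN (glycine) codon along the coding sequence of each tested collagen gene, in codons from the start, coloured by class. The fibrillar genes carry a long block of up to 344 repeats, whereas the type IV genes carry 17 or 18 shorter blocks.

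Stretches of 90 coding bases show the pattern in the 2 genes that were lower past the study's thresholds (Col5a3 and Col6a3), in Col5a1, the partner chain of Col5a3, and at an interruption in Col4a1. Capitals mark GGN codons in register within a run. The Col5a3 stretch opens its longest run at codon 478 (GRCm38, minus strand, chr9:20801077-20801260), and the matching stretch of Col5a1 begins at codon 559 (plus strand, chr2:27964080-27965295). The Col4a1 stretch begins at codon 148 (minus strand, chr8:11244507-11245084) and the Col6a3 stretch at codon 2165 (minus strand, chr1:90791924-90792445). These are exonic coding bases, and each of the 4 genomic spans includes intron sequence between the exons that is not printed.
Col5a3: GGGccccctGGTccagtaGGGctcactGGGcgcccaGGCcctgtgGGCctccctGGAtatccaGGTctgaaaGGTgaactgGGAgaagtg
Col5a1: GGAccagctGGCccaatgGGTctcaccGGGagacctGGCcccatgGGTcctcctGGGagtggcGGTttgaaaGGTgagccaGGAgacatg
Col4a1: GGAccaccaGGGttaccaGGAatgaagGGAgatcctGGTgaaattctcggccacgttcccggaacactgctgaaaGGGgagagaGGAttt
Col6a3: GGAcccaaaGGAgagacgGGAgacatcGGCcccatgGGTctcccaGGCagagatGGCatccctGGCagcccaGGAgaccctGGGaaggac
In Col5a3, Col5a1 and Col6a3 every codon triplet of the stretch opens with GGN. In Col4a1 the capitals stop partway and resume near the end of the stretch.

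Values are normalised counts, that is, reads per gene scaled within each library and then rounded. The 3′ kit primes at the tail of each mRNA, so a value need not scale with gene length. Ratios and shares of different genes were compared between libraries and do not give the relative amounts of the chains. The libraries held approximately 2.52 to 4.71 M reads, the value for untreated replicate 1 being uncertain, and 3 reads, the most that a listed 0 can hide, were worth 2.50 to 5.37 normalised counts. Amisulpride replicate 3, the library with the fewest reads, stood apart on the first principal component of all tested genes (score 73.9, against -38.2 to 10.4 for the other 5 libraries), so values without it are given where they matter. Markers fixed for fibroblasts were all above the filter (12 of 12), which fits the label. Their summed level was 47958 to 57762 in untreated and 36619 to 46974 in treated libraries. S100a4 alone stood at 29324, 24374 and 25274 in untreated and at 13948, 10468 and 8035 in treated libraries. It was the 1 marker past the study thresholds, lower (against 3.01% of all genes). Of the 12 markers, 6 had a log2 fold change above 0 and 6 below 0, with a median of 0.01. Of the endothelial markers Cdh5, Cldn5 and Tie1 stood at 0 in every library, while the highest value was 12 for Tek and 10 for Emcn. Of the chondrocyte markers Matn1 stood at 0 and Acan at 2 or less, while Sox9 (233 to 557) and Comp (303 to 1051) were present in every library. Of the keratinocyte markers Krt5 and Krt14 stood at 0 and Krt10 at 13 to 26.

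Of the 44 collagen genes, 23 reached at least 10 normalised counts in at least 3 of the 6 libraries and were tested. Another 6 stood at 0 in every library, namely Col26a1, the FACIT genes Col19a1, Col9a1 and Col22a1, the transmembrane gene Col13a1 and the beaded filament gene Col6a5. The other 15 were above 0 in at least 1 library, and 7 of these did not exceed the level of 3 reads in any library. Col20a1, a FACIT gene, reached the highest value of the genes that were not tested, 34, with 6, 1 and 1 in untreated and 34, 13 and 2 in amisulpride replicates 1, 2 and 3. It overlaps 9230112E08Rik, which reached 43, on the same strand over 741 bases, so reads from either gene cannot be told apart there. Col2a1, the main fibrillar collagen of cartilage, was listed at 9, 8 and 12 in untreated and at 4, 3 and 9 in treated libraries, so that it was detected at a few reads only. None of the 4 transmembrane genes was tested, the highest value among them being 8 for Col23a1.

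Across the tested collagen genes, 15 had a log2 fold change above 0 and 8 below 0 (65.2% above 0, against 50.1% of all 12614 genes tested), and the median log2 fold change was 0.09, against 0.00 for all genes. With a Benjamini-Hochberg adjusted p under 0.05 in limma, 1 collagen gene was called, Col5a3 (4.35% of those tested, against 0.285% of all genes). That gene was lower (against 0.19% of all genes called lower and 0.0951% called higher). The study thresholds required a log2 fold change of 1 or more in either direction and an unadjusted p under 0.05. Past them 2 collagen genes were lower (8.7%, against 3.01% of all genes) and 0 were higher (against 2.69%, or 5.7% of all genes in both directions together). The 0 higher were 0 also at an unadjusted p under 0.05, where the only collagen genes were the same 2, Col5a3 and Col6a3 (8.7%, against 10.9% of all genes in either direction). The treated values lay wholly below the untreated ones for these 2 (8.7%, against 8.66% of all genes) and wholly above them for 0 (against 7.8%). Each of these shares rests on at most 2 genes.

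**Figure D2:**
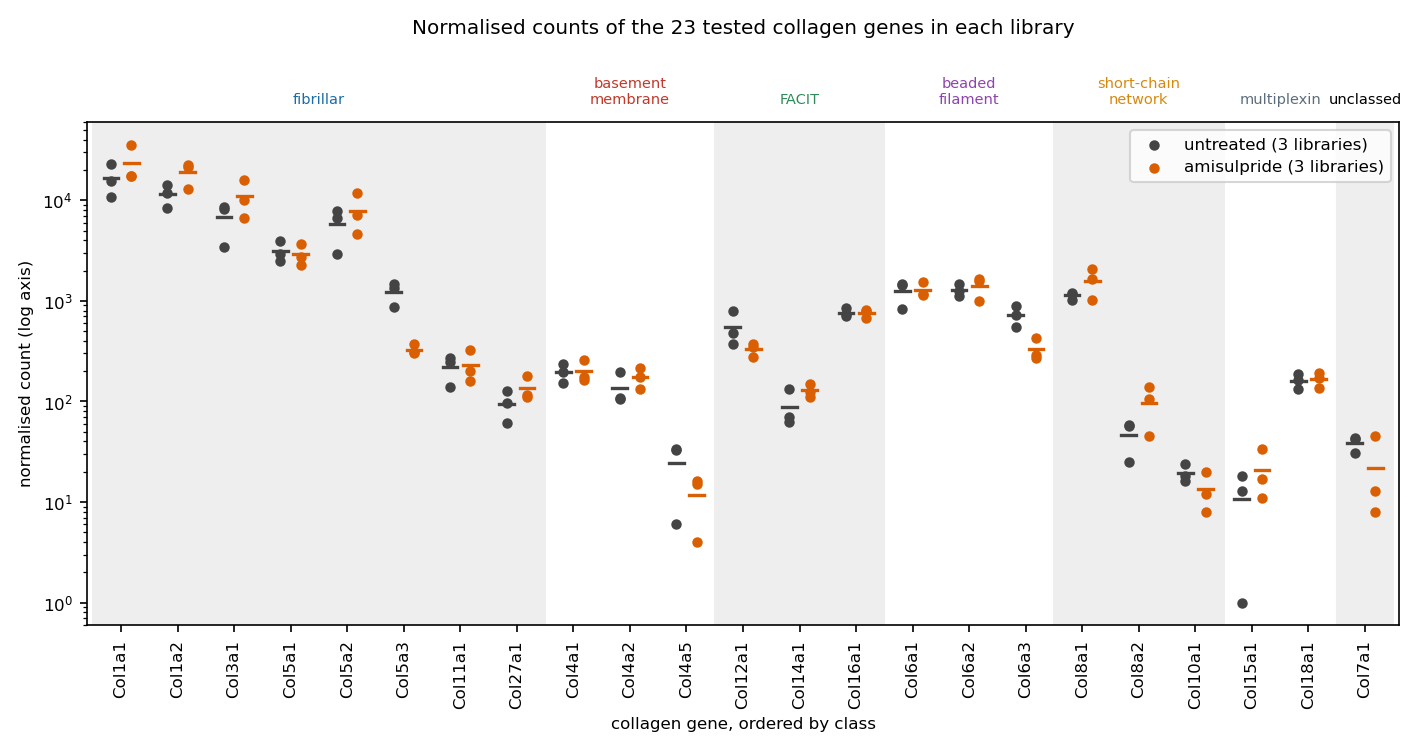
Normalised counts (log axis) of the 23 tested collagen genes in each library, by class, with untreated libraries in grey, amisulpride libraries in orange and bars at the group means. The treated points lie wholly below the untreated points for Col5a3 and Col6a3, and the groups overlap for the other 21 genes.

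Among fibrillar genes, Col5a3 encodes the α3 chain of type V collagen, which joins the α1 and α2 chains encoded by Col5a1 and Col5a2 in some type V molecules. Col5a3 stood at 1337, 867 and 1481 normalised counts in untreated replicates 1, 2 and 3, and at 374, 300 and 310 in amisulpride replicates 1, 2 and 3. The highest treated library was thus well under the lowest untreated one, and the treated libraries lay close to each other. The level fell from 1228 ± 321 to 328 ± 40.1 (SD, n = 3 each), a log2 fold change of -1.87 ± 0.27 (SE, adjusted p = 0.0156 in limma). The log2 differences within the 3 replicate pairs were -1.83, -1.53 and -2.25. All are below 0 under any pairing, since the groups did not overlap. The adjusted p was 0.00912 without amisulpride replicate 3, but 0.0507 without amisulpride replicate 1, 0.0828 without amisulpride replicate 2, and 0.124, 0.083 and 0.167 without untreated replicates 1, 2 and 3, so that this call was lost when any of these 5 libraries was left out. The log2 fold change stayed between -2.10 and -1.72 throughout, past the study thresholds each time. In such bulk cultures fewer cells that express a gene and less RNA per cell cannot be told apart.

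The Col5a3 gene lies on chromosome 9 (20770050 to 20815067, minus strand, GRCm38). The 250 bases upstream of its RefSeq start (GRCm38.p6, minus strand, chr9:20815068-20815317) are printed because Col5a3 carried the only call at the adjusted threshold, together with those of Col6a3 (minus strand, chr1:90843972-90844221), the other gene that fell. Capitals mark the motifs, each searched on both strands: CCAAT, the letters GGGCGG of a GC box, and the AP-1 element TGACTCA.
Col5a3 upstream: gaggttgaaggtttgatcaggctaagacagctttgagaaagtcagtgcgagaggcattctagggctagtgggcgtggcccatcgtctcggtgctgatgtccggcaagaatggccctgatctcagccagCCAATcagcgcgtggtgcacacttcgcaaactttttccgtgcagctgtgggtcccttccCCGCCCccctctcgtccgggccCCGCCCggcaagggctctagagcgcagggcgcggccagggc
Col6a3 upstream: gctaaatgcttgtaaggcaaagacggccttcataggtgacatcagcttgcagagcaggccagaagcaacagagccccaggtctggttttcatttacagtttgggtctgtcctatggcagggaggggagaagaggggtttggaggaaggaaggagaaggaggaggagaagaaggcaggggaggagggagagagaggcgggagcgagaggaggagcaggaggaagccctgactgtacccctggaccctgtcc
The Col5a3 window held CCAAT at -122 and GGGCGG on the other strand at -63 and -41, counted from the start, with no overlap among them. The Col6a3 window held none of the 3 motifs. Of all 32851 RefSeq windows of this length, 33.8% held CCAAT, 32.7% GGGCGG and 4.46% TGACTCA. Of the 19 tested collagen genes with a window these were present in 9, 13 and 1, the last being Col6a1. A collagen gene was counted if any of its windows held the motif, whereas the percentages are over single windows, so these figures are not directly comparable.

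The partner chains of Col5a3 had values that overlapped between the groups. Col5a1 stood at 2469, 2938 and 3950 in untreated and at 2755, 2298 and 3690 in treated libraries, with a log2 fold change of -0.10 and a 95% confidence interval from -0.73 to 0.53. Col5a2 stood at 2928, 6667 and 7759 in untreated and at 4646, 7138 and 11782 in treated libraries, with a log2 fold change of 0.46 and an interval from -0.48 to 1.39. The ratio of Col5a3 to Col5a1 within each library, a pair chosen after the values were seen, was 0.542, 0.295 and 0.375 in untreated and 0.136, 0.131 and 0.084 in treated libraries. Every treated ratio lay under every untreated one, with a mean log2 difference of -1.78 that was -1.55 without amisulpride replicate 3. For Col5a3 to Col5a2, also chosen after the values were seen, the mean log2 difference was -2.33, again without overlap, whereas the ratio of Col5a1 to Col5a2 differed by -0.55 with overlap.

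The chains of types I and III are the most abundant products of connective tissue fibroblasts. Col1a1, which encodes the α1 chain of type I collagen, stood at 10814, 15684 and 23007 in untreated and at 17537, 17397 and 35599 in treated libraries. Its partner Col1a2 stood at 8485, 11784 and 14258 in untreated and at 12852, 22596 and 21649 in treated libraries. For both genes a part of the treated range lay inside the untreated range. Col3a1, the only chain of type III collagen, stood at 3440, 8252 and 8672 in untreated and at 6701, 10128 and 16012 in treated libraries. Its highest treated value was that of amisulpride replicate 3, and its lowest untreated value that of replicate 1.

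None of these chains passed the test. The log2 fold change was 0.49 for Col1a1 (95% confidence interval -0.38 to 1.36, adjusted p = 0.703 in limma), 0.71 for Col1a2 (interval -0.04 to 1.46, adjusted p = 0.487 in limma) and 0.71 for Col3a1 (interval -0.21 to 1.64, adjusted p = 0.581 in limma). Without amisulpride replicate 3 they were 0.15, 0.60 and 0.39, and without untreated replicate 1 they were 0.22, 0.51 and 0.28. Without amisulpride replicate 1 Col3a1 passed the study thresholds at 1.02. The value was nevertheless higher in all 3 replicate pairs for each of these chains. The same held for Col5a2, Col27a1, Col4a2, Col14a1 and Col15a1, 8 tested collagen genes in all (34.8%, against 16.9% of all genes). Col5a3 and Col6a3 were lower in all 3 pairs (8.7%, against 17.8%), which follows under any pairing from groups that do not overlap.

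Col11a1 and Col27a1 complete the tested fibrillar genes. Col11a1, a minor fibrillar chain best known from cartilage, had values of 138 to 272 in untreated and 161 to 327 in treated libraries, with a log2 fold change of 0.06. Col27a1, the exception in the repeat map, had values of 61 to 126 and of 111 to 178, with a log2 fold change of 0.53. Both ranges overlapped. Of the 8 tested fibrillar genes, 6 had a value above 0 and 2 below 0, and their median log2 fold change was 0.47. The median was 0.13 without amisulpride replicate 3 and 0.12 without untreated replicate 1.

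**Figure D3:**
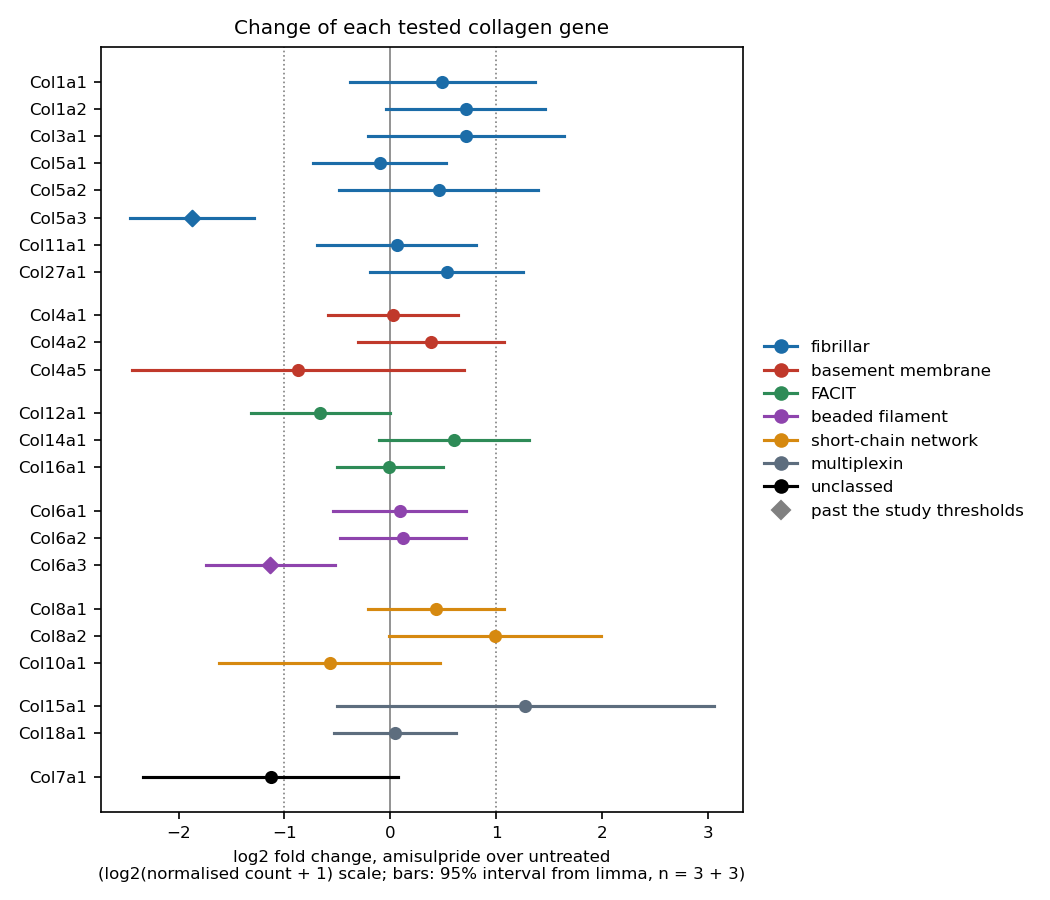
Log2 fold change (amisulpride over untreated, log2 of normalised count + 1) of each tested collagen gene, with its 95% interval from limma, coloured by class, with dotted lines at the study's fold threshold and diamonds for genes past the study thresholds. The intervals of Col5a3 (-2.46 to -1.29) and Col6a3 (-1.74 to -0.52) lie below 0 and the other 21 include 0.

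Type VI collagen is assembled from α1, α2 and α3 chains, and the α3 chain encoded by Col6a3 is the longest of them. Col6a3 (chromosome 1, 90765923 to 90843971, minus strand) stood at 731, 550 and 883 in untreated and at 431, 270 and 288 in amisulpride replicates 1, 2 and 3. Each treated library was under the lowest untreated library. The level fell from 721 ± 167 to 330 ± 88.2 (SD, n = 3 each), a log2 fold change of -1.13 ± 0.28 (SE), which passed the study thresholds but not the adjusted threshold (unadjusted p = 0.00173, adjusted p = 0.13 in limma). With the replicate number as a block the adjusted p was 0.0298 in limma, so that Col6a3 passed it in that fit, in which 2.08% of all genes were called. The log2 fold change was -1.05 without amisulpride replicate 3 and -0.97 without untreated replicate 3, the latter no longer past the study thresholds.

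Col6a1 and Col6a2 encode the α1 and α2 chains. Col6a1 stood at 823, 1474 and 1439 in untreated and at 1559, 1172 and 1145 in treated libraries, and Col6a2 at 1120, 1251 and 1457 in untreated and at 1651, 992 and 1593 in treated libraries. The groups overlapped for both, with log2 fold changes of 0.09 (95% confidence interval -0.54 to 0.72) and 0.12 (interval -0.48 to 0.71). The ratio of Col6a3 to Col6a1 was 0.888, 0.373 and 0.614 in untreated and 0.276, 0.23 and 0.252 in treated libraries. The treated ratios all lay under the untreated ones, and they spread less (0.253 ± 0.0231 against 0.625 ± 0.258, SD, n = 3 each). The mean log2 difference was -1.22, with and without amisulpride replicate 3, against -0.03 with overlap for the ratio of Col6a1 to Col6a2. Of the remaining type VI genes, Col6a4 stood at 2, 1 and 1 in untreated and at 0 in treated libraries, and Col6a6 at 0 in untreated and at 0, 5 and 5 in treated libraries, all near or under the level of 3 reads.

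**Figure D4:**
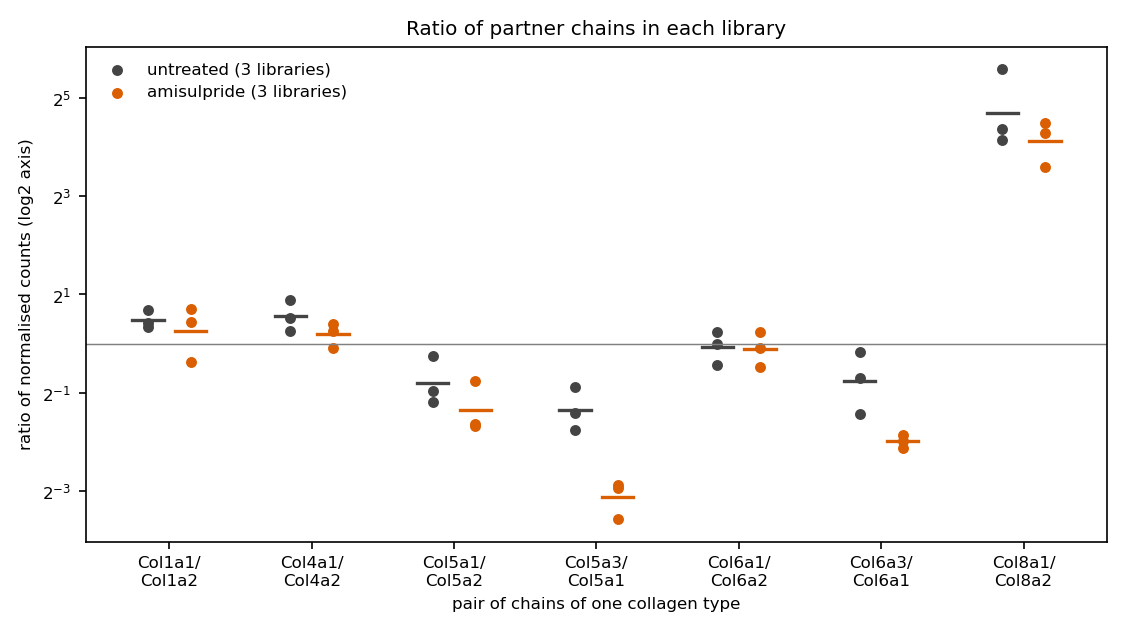
Ratio of the normalised counts of partner chains of the same collagen type in each library (log2 axis), with untreated libraries in grey, amisulpride libraries in orange and bars at the mean of the log2 ratios. The groups separate for Col5a3/Col5a1 (mean log2 difference -1.78) and Col6a3/Col6a1 (-1.22) and overlap for the other 5 pairs. Col5a3 and Col6a3 separate on their own as well, so their ratios largely restate those falls. The pair Col5a3/Col5a1 was chosen after the values were seen.

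The other listed pairs of chains overlapped between the groups. The mean log2 difference of the ratio was -0.22 for Col1a1 to Col1a2, -0.36 for Col4a1 to Col4a2 and -0.57 for Col8a1 to Col8a2. These ratios set values within a library against each other and carry no test, since members of a type are not replicates of a condition. Where Col5a3 or Col6a3 is the numerator, the separation largely restates the fall of that gene and is no further support.

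Some genes listed as markers of mural cells, the contractile cells around vessels, were lower in treated libraries, as Col5a3 and Col6a3 were. Of 9 such markers 5 were tested and 3 were lower at the study thresholds (Acta2, Cnn1 and Mcam, against 3.01% of all genes), while Cspg4 and Notch3 did not pass, with log2 fold changes of 0.21 and -0.08. The summed level of the 9 markers was 5495 to 10014 in untreated and 1446 to 4851 in treated libraries. Most of it was Acta2, at 5030 to 9384 and 1253 to 4586. The markers not tested were low, with highest values of 12 for Rgs5, 9 for Des and 1 for Myh11 and Kcnj8. Myeloid markers, of which 9 of 9 were tested and 2 were lower (Csf1r and Cd14, against 3.01% of all genes), summed to 2337 to 3951 in untreated and 2105 to 4001 in treated libraries. Most of that sum was Lyz2, at 1733 to 3046 and 1394 to 3287. The groups overlapped for Csf1r. Of the 9 myeloid markers 7 had a log2 fold change below 0 and 2 above 0, namely Adgre1 (0.83) and Cd68 (0.31), with a median of -0.34. The presence of mural or myeloid cells and their part in the collagen values were not tested. Few markers of the other cell types were high enough to be tested. The single osteoblast marker tested of 9, Alpl, and 1 of the 2 Schwann cell markers tested of 6, Mbp, were lower at the study thresholds. The 2 chondrocyte markers tested of 8 listed in the table (Sox9 and Comp), and the 1 tested of 8 skeletal muscle (Acta1), of 7 keratinocyte (Krt10) and of 5 adipocyte markers (Fabp4), did not pass them. None of the 9 endothelial markers was tested.

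In the basement membrane class, Col4a1 and Col4a2 encode the chains of the widespread form of type IV collagen and adjoin each other head to head on chromosome 8. Col4a1 stood at 195, 154 and 234 in untreated and at 176, 163 and 259 in treated libraries, and Col4a2 at 105, 108 and 196 in untreated and at 133, 174 and 215 in treated libraries. The groups overlapped for both, with log2 fold changes of 0.03 (95% confidence interval -0.59 to 0.64) and 0.38 (interval -0.31 to 1.07). Col4a5, a chain of specialised basement membranes, was low and scattered, at 6, 33 and 34 in untreated and at 15, 16 and 4 in treated libraries. Its log2 fold change of -0.87 ± 0.72 (SE) did not pass the test, though it did pass the study thresholds without untreated replicate 1, at -1.64. Col4a3, Col4a4 and Col4a6 did not exceed 3 normalised counts. The median of the 3 tested genes was 0.03, or -0.18 without amisulpride replicate 3.

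Among FACIT genes, Col16a1 hardly moved between the groups. It stood at 746, 703 and 849 in untreated and at 788, 818 and 680 in treated libraries, a log2 fold change of -0.01 with a 95% confidence interval from -0.51 to 0.49, so that changes as large as the study's fold threshold lie outside the interval. Col12a1, which bridges collagen I fibrils and other matrix proteins, stood at 370, 476 and 790 in untreated and at 372, 345 and 274 in treated libraries. The groups overlapped through a single pair of libraries, the first replicates, with a log2 fold change of -0.66 ± 0.30 (SE), an unadjusted p of 0.0502 and an adjusted p of 0.459 in limma. Col14a1, which also binds fibril surfaces, stood at 133, 70 and 63 in untreated and at 150, 111 and 125 in treated libraries, a log2 fold change of 0.60 ± 0.32 (SE, adjusted p = 0.54 in limma). The 3 tested FACIT genes thus had values on either side of 0 and a median of -0.01.

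The short-chain network genes encode type VIII collagen, found in vessel walls and the cornea, and type X collagen, the product of hypertrophic chondrocytes. Col8a1 stood at 1021, 1181 and 1196 in untreated and at 1013, 1669 and 2094 in treated libraries, a log2 fold change of 0.43 (95% confidence interval -0.21 to 1.07). Col8a2 stood at 58, 57 and 25 in untreated and at 45, 139 and 107 in treated libraries. Amisulpride replicate 1 alone lay within the untreated range, and the log2 fold change of 0.99 ± 0.46 (SE, unadjusted p = 0.0528 and adjusted p = 0.465 in limma) became 1.46 without it, past the study thresholds. Col10a1 was low in both groups, at 24, 18 and 16 in untreated and at 8, 12 and 20 in treated libraries, with a log2 fold change of -0.57. Since Col10a1 overlaps Nt5dc1 on the opposite strand over 7105 bases and strand use in the counting was not stated, reads from either gene cannot be told apart there.

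The multiplexins Col15a1 and Col18a1 are found next to basement membranes. Col18a1, whose C-terminal fragment is endostatin, stood at 163, 132 and 189 in untreated and at 136, 171 and 191 in treated libraries, a log2 fold change of 0.04 (95% confidence interval -0.53 to 0.62). It overlaps Slc19a1 on the opposite strand over 8825 bases, with the same doubt as for Col10a1. Col15a1 was near the filter, at 13, 1 and 18 in untreated and at 17, 11 and 34 in treated libraries. Its log2 fold change of 1.28 ± 0.81 (SE, unadjusted p = 0.143 in limma) rests on the single low library, untreated replicate 2, and without that library it was 0.27. With the replicate number as a block Col15a1 passed the study thresholds.

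Col7a1, which forms the anchoring fibrils under epithelia, was the only unclassed gene tested. It stood at 42, 31 and 43 in untreated and at 13, 8 and 45 in treated libraries. Amisulpride replicates 1 and 2 lay under every untreated library, whereas amisulpride replicate 3 lay above them all. The log2 fold change was -1.13 ± 0.55 (SE, unadjusted p = 0.0635 and adjusted p = 0.495 in limma). Without amisulpride replicate 3 it was -1.81, past the study thresholds, and it also passed them at -1.13 with the replicate number as a block.

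The share of the libraries taken by collagen genes overlapped between the groups. The 44 genes held 0.886%, 1.38% and 1.7% of all normalised counts in untreated and 1.31%, 1.69% and 2.14% in treated libraries. Within the collagen total, fibrillar genes held 84.2%, 88.2% and 88.9% in untreated and 87.3%, 90.8% and 92.7% in treated libraries. Beaded filament genes held 6.48% ± 0.996 in untreated and 4.62% ± 2.12 in treated libraries, FACIT genes 2.83% ± 0.64 and 1.89% ± 0.746, short-chain genes 2.45% ± 0.641 and 2.37% ± 0.346, and basement membrane genes 0.71% ± 0.152 and 0.552% ± 0.0701 (SD, n = 3 each). All these ranges overlapped between untreated and treated SFs.

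Genes that fold, modify and process collagen chains, written as a list of 37, were set beside the collagens. Of 33 tested, the study thresholds were passed upwards by 2 and downwards by 3 (against 2.69% and 3.01% of all genes), 17 had a value above 0 and 16 below 0 (against 50.1% of all genes above 0), and the median log2 fold change was 0.01. Plod2, a lysyl hydroxylase that acts on the telopeptides and so on crosslinks, stood at 409, 900 and 907 in untreated and at 1084, 1301 and 3965 in treated libraries, a log2 fold change of 1.35. Ppib, a prolyl isomerase that aids helix folding, stood at 579, 983 and 1167 in untreated and at 1691, 2238 and 1730 in treated libraries, a log2 fold change of 1.10. For both genes each treated library was above every untreated one. P3h4, a partner of collagen hydroxylases, fell by 1.22 on the log2 scale, from 1069, 745 and 828 in untreated to 492, 364 and 292 in treated libraries, again without overlap.

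Tmem38b, an ion channel of the endoplasmic reticulum, had a log2 fold change of -1.13, and Adamts14, a procollagen N-proteinase, had one of -1.91. Both were low. Adamts14 stood at 36, 22 and 73 in untreated and at 3, 7 and 36 in treated libraries, with overlap. Tmem38b stood at 43, 24 and 39 in untreated and at 13, 19 and 14 in treated libraries. None of these 5 passed the adjusted threshold in limma, their adjusted p lying between 0.0925 for P3h4 and 0.357 for Adamts14. Without untreated replicate 1 only P3h4 of these 5 passed the study thresholds. Plod2 did not pass them without amisulpride replicate 3, Ppib without amisulpride replicate 2, Tmem38b without untreated replicate 3, and Adamts14 without untreated replicate 3 or amisulpride replicate 1 or 2. P3h4 was past the study thresholds whichever library was left out.

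Among 17 genes for collagen receptors, uptake and breakdown, 13 were tested, and the study thresholds were passed upwards by 0 and downwards by 2 (against 2.69% and 3.01% of all genes), with a median log2 fold change of -0.03. The 0 higher among them were 0 as well at the adjusted threshold in limma. Mmp9, a gelatinase, fell by 1.70 on the log2 scale, from 2658, 992 and 2581 in untreated to 638, 230 and 1337 in treated libraries. Mmp13, a collagenase, fell by 1.31, from 696, 1462 and 922 in untreated to 223, 779 and 349 in treated libraries. The groups overlapped for both proteinases, and their adjusted p was 0.265 and 0.254 in limma. Mmp9 did not pass the study thresholds without untreated replicate 1 or amisulpride replicate 2, nor Mmp13 without untreated replicate 2 or amisulpride replicate 1.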

How the data were processed

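The authors mapped 3′ end reads to mm10 with TopHat2 and Bowtie2, counted them per gene with GenomicRanges and normalised and tested them with DESeq through metaseqr. The versions are not given in the sources used here. The values the authors deposited are a score, namely read counts scaled by 1 factor for each library, then rounded. Their own fold changes and p-values were not used, nor were 12 further columns of values per library on other scales. A value of 1 read was estimated for each library from the spacing of low values, which is uncertain for untreated replicate 1. Floors cover counting error only, whereas the 95% intervals come from limma and rest on the spread between libraries. Groups, taken from the labels, were compared in R 4.3.3 with limma 3.58.1 on log2(normalised count + 1), a scale that understates the change of low genes, with a trend of variance on the mean, over genes that reached 10 in 3 or more of the 6 libraries, two-sided and adjusted by Benjamini-Hochberg over all 12614 genes tested. The fit was tested on simulated data. Sums and ratios were computed in Python 3.11.15 with pandas 2.3.3.

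The replicate numbers may pair the samples. Deviations from the group means correlated across genes at 0.229, 0.24 and 0.201 for libraries of the same number. The correlation was below 0 for every other pair. The study's fit had no block, so the main fit here had none, and its p-values and intervals do not use the pairing. The block is an alternative. The p-values set the difference between group means against the spread between these libraries, which limma moderates with that of all genes tested. Other pseudocounts, filters, scalings, weights, the block and leaving out each library were tried. The genes given with values in every library are those past a threshold and, in each class, the highest, the largest rise and the largest fall, with partner chains added. The ratios Col5a3/Col5a1 and Col5a3/Col5a2 and that of the neighbouring pair Col3a1/Col5a2 were added after the data were seen. The collagen genes, their classes and all lists were chosen with earlier results of these data known.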

Additional observations from a re-analysis of the deposited data

How the results depend on the processing

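The number of collagen genes with an adjusted p under 0.05 in limma was 1 and became 2 with the replicate block (Col5a3 and Col6a3) and 0 to 1 when 1 library was left out. Collagen genes lower at the study thresholds numbered 2, and 3 with no filter (Col6a4 added), with equal totals, weights per library or the replicate block (Col7a1 added), and 1 to 3 with 1 library left out, the third being Col4a5 without untreated replicate 1 and Col7a1 without amisulpride replicate 3. Collagen genes higher at them numbered 0, and 1 without the filter on low values (Col6a6), with weights per library (Col8a2) and with the replicate block (Col15a1), and 0 to 2 with 1 library left out, the 2 being Col3a1 and Col8a2 without amisulpride replicate 1. Among the folding and processing genes, 3 lower became 5 and 2 higher became 1 with weights per library, and with 1 library left out they were 1 to 5 and 0 to 2. The 3 lower became 2 with a pseudocount of 5 and with a filter of at least 30 in at least 3 libraries. Among the receptor, uptake and breakdown genes the 2 lower became 1 to 2 and the 0 higher 0 to 1 with 1 library left out, the 1 being Fap without amisulpride replicate 1. The cause of these shifts was not tested. The only calls among collagen genes that the block changed were Col6a3 at the adjusted threshold, and Col7a1 and Col15a1 at the study thresholds. Over the 15 alternatives, of 342 values of single collagen genes 310 kept their direction and side of the threshold, 9 came to pass it, 1 no longer passed it and 22 were uncalled values that changed sign. All class medians and chain ratios moved by less than the spread between libraries. The alternatives for the 2 lists, the class shares and 3 ratios were chosen after the data were seen. No scaling moved the median of all genes by over 0.1 on the log2 scale. Over all genes, 36 passed the adjusted threshold in limma, 57 with a pseudocount of 5 or no filter, 195 with weights per library, 263 with the block, and 0 to 120 with 1 library left out. Depth limits genes near 2.50 to 5.37 normalised counts, where a value stands for 3 reads.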

Other observations

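Col3a1 and Col5a2 are neighbours on chromosome 1, transcribed towards each other and 24614 bases apart, and their normalised counts kept a nearly fixed proportion over the 6 libraries. The ratio of Col3a1 to Col5a2, looked at after the values were seen, was 1.17, 1.24 and 1.12 in untreated and 1.44, 1.42 and 1.36 in treated libraries. The SD of its log2 value over the 6 libraries was 0.152, against 0.732 and 0.687 for Col3a1 and Col5a2 themselves. Every treated ratio was above every untreated one, with a mean log2 difference of 0.26 that stayed between 0.22 and 0.30 when 1 library was left out.

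The combined share of Col1a1, Col1a2 and Col3a1 in the collagen total, also chosen after the values were seen, was 64.4%, 67.6% and 68.7% in untreated and 71.7%, 75.5% and 75.8% in treated libraries. The groups did not overlap (66.9% ± 2.2 against 74.4% ± 2.29, SD, n = 3 each), although each of the 3 genes alone did. These values carry no test. The collagen total itself ranged from 35295 to 66910 normalised counts in untreated and from 51704 to 96587 in treated libraries, with the highest value in amisulpride replicate 3.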
